A study of Mus musculus with 4 samples.

Results

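Extracellular matrix and contractile genes were examined as a module of 52 mouse genes, chosen by symbol among the 32285 genes measured. All 52 were found in the 4 single-cell libraries of liver cells. By role they comprise 17 collagen chains, 6 adhesive glycoproteins, 5 proteoglycans and matrix Gla protein, 7 elastic fibre proteins, 3 lysyl oxidases, 6 basement membrane proteins, 5 contractile proteins and 3 enzymes or chaperones of collagen maturation.

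Fibrillar collagens I, III and V are secreted as procollagens, folded with the help of the chaperone Serpinh1, hydroxylated by enzymes such as P4ha1 and Plod2, and tied together outside the cell by lysyl oxidases. Sheet-forming collagen IV, laminins, nidogen and perlecan (Hspg2) build basement membranes under vessels and ducts. In scarring liver, matrix is known to come mainly from stellate cells that turn into contractile myofibroblasts carrying smooth muscle actin (Acta2), with portal fibroblasts and mesothelial cells of the liver capsule as further sources.

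The libraries came from male C57BL/6J mice that were 8 weeks old at the start. MASH mice received the FAT-MASH regimen (a Western diet, drinking water with fructose and glucose, and a weekly low dose of carbon tetrachloride injected into the peritoneum), and chow mice received normal chow, each for 12 or 24 weeks. There was 1 library for each of the 4 groups, named below as 12-week MASH, 12-week chow, 24-week MASH and 24-week chow. All livers were held overnight on ice, digested with collagenase IV and DNase, and passed over Percoll to collect non-parenchymal cells before 10x 5′ library preparation, so cell shares describe this suspension and not the intact organ. With 1 library per group there is no replicate check and no p-value. Every difference below is a difference between libraries, and every interval is an exact 95% interval that covers counting error only.

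After filters and doublet removal 14001, 16363, 17476 and 21333 cells were kept in 12-week MASH, 12-week chow, 24-week MASH and 24-week chow, with median depths between 1980 and 3166 UMIs (unique molecular identifiers, each standing for a captured RNA molecule). Levels are given as CPM, the UMIs of a gene per 1000000 UMIs of all genes in the same cells. The 12-week MASH library stood apart in how it was made: its matrix held 737280 columns and came from an earlier Cell Ranger version, so this difference and the diet cannot be told apart at 12 weeks. Its 362845 droplets with at most 100 UMIs held the members at 2594 CPM, which shows matrix RNA free in the suspension. T-cell-like cells carried the members at 143.5, 83.2, 65.2 and 74.9 CPM in 12-week MASH, 12-week chow, 24-week MASH and 24-week chow. P4ha1 alone held 51.83, 25.17, 14.74 and 31.92 CPM of these sums, in the same order. In 12-week MASH P4ha1 stood at 73.59 CPM in the droplets with at most 100 UMIs. Col1a1 stood at 88.56 CPM in those droplets and at 1.107 CPM in T-cell-like cells of that library. The part of free RNA in the T-cell-like sums was not tested. Of the kept cells 14.1% to 22.3% carried more than 1 hashtag. Among the 3 libraries with usable barcode names, pairs shared 487 to 732 barcodes.

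Among the kept cells no cluster was named for the stellate marker set. Without doublet removal 1 subcluster of 9 cells, led by Tcf21, Reln and Itga8, was named stellate-like, with 3 cells in 12-week MASH, 2 in 12-week chow, 4 in 24-week MASH and 0 in 24-week chow. Lrat, the enzyme that stores retinol as retinyl ester in stellate cells, had 51 UMIs in all kept cells of the 4 libraries together, 16 of them in mesenchymal cells. Reln had 913 UMIs with 8 in mesenchymal cells, and the pericyte gene Rgs5 had 3623 UMIs with 2 in mesenchymal cells. Other markers of the stellate list were scarce but mostly mesenchymal: mesenchymal cells held 243 of 263 UMIs of Hand2, 260 of 290 of Des, 97 of 119 of Tcf21, 97 of 150 of Colec11 and 135 of 211 of Pdgfrb. Mesenchymal cells held 4051 of 4188 UMIs of the mesothelial gene Upk3b and 1089 of 1119 UMIs of Wt1. They fell into a mesothelial-like class, a fibroblast-like class and a small mixed class with lymphocyte genes. In the fibroblast-like class Dpt was seen in 95.2%, Clec3b in 94% and Pi16 in 64.3% of cells. Myh11 and Cnn1, markers of smooth muscle, had 4 and 2 UMIs in mesenchymal cells. The account that follows therefore concerns mesothelial-like, fibroblast-like, endothelial-like, cholangiocyte-like, macrophage-like and monocyte-like cells.

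Over all kept cells the members made up 2771.8 CPM in 12-week MASH, against 1361.9 CPM in 12-week chow, and 1062 CPM in 24-week MASH, against 491.5 CPM in 24-week chow. MASH over chow, this made a ratio of 2.04 (2.02 to 2.05) for the 12-week libraries and 2.16 (2.13 to 2.19) for the 24-week ones. A member is called higher or lower here when the ratio is at least 2-fold with its interval on that side of 1 and at least 10 UMIs over the libraries compared. At 12 weeks 27 of 52 members were higher and 0 lower, where 8.62% of all genes compared were higher and 3.5% lower. At 24 weeks 31 were higher and 0 lower, where 13.9% of all genes were higher and 4.23% lower. The median log2 ratio of the members was 1.16 at 12 weeks and 1.42 at 24 weeks, beside -0.02 and 0.06 for all genes. At both weeks 22 members were higher.

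By role, 12 of 17 collagens were higher at 12 weeks and 12 at 24 weeks. Col1a1, the main chain of fibrillar collagen I, had 106 CPM in 12-week MASH, against 15.1 CPM in 12-week chow, and 15.2 CPM in 24-week MASH, against 2.20 CPM in 24-week chow. Its ratios were 7.02 (6.48 to 7.62) and 6.90 (5.75 to 8.33), while its level at 24 weeks was far below that at 12 weeks under both diets. Its partner chain Col1a2 differed 5.56-fold and 11.7-fold, and Col3a1, which forms collagen III, 5.42-fold and 7.05-fold. The widest collagen difference at 24 weeks was not in these chains but in Col6a2 of the beaded collagen VI, with 14.1 CPM in 24-week MASH, against 0.563 CPM in 24-week chow.

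Basement membrane members stood apart from the fibrillar ones in the same libraries. Col4a1 had 76.1 CPM in 12-week MASH, against 81.5 CPM in 12-week chow, and 46.5 CPM in 24-week MASH, against 34.4 CPM in 24-week chow. Hspg2, the large heparan sulfate proteoglycan perlecan, had 58.6 CPM in 12-week MASH, against 70.6 CPM in 12-week chow, and 32.4 CPM in 24-week MASH, against 31.3 CPM in 24-week chow. Of the 6 basement membrane proteins 0 were higher at 12 weeks and 1 at 24 weeks (Lama4).

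Fn1, the fibronectin gene, had 450.7 CPM in 12-week MASH, against 56.6 CPM in 12-week chow, and 189.8 CPM in 24-week MASH, against 43.8 CPM in 24-week chow. Its ratios were 7.97 (7.64 to 8.31) and 4.34 (4.16 to 4.52). Among the proteoglycans, Dcn (decorin, which binds collagen fibrils) was 2.91-fold and 5.66-fold higher, and Vcan (versican) was 2.86-fold and 6.12-fold higher. Bgn (biglycan, a relative of decorin) stood at ratios of 0.965 and 1.63 and passed the call at neither week. All 3 lysyl oxidases were higher at 12 weeks, and Lox and Loxl1 at both. Loxl1, which acts on elastic fibres, had 18.4 CPM in 12-week MASH, against 3.89 CPM in 12-week chow, and 10.6 CPM in 24-week MASH, against 0.341 CPM in 24-week chow. Sparc, a collagen-binding glycoprotein, had ratios of 1.10 and 1.54 and was called at neither week.

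The RNA of different members came from different cells, and the make-up of these sources differed between the diets. Mesenchymal classes supplied 60.4% of all member UMIs in 12-week MASH, against 30.01% in 12-week chow, and 42.6% in 24-week MASH, against 9.59% in 24-week chow. Endothelial classes supplied 18.3% in 12-week MASH, against 57.2% in 12-week chow, and 19.4% in 24-week MASH, against 55.6% in 24-week chow. Here and below, endothelial classes include a mixed class that also carried T or NK genes. It had 321 and 1066 cells at 12 weeks and 90 and 458 at 24 weeks, MASH first. It held 1726 of 155857 member UMIs in 12-week MASH and 6349 of 59191 in 12-week chow. At 24 weeks it held 609 of 88894 in MASH and 2997 of 28820 in chow. The part of mixed droplets in these shares was not tested. Mesothelial-like cells alone supplied 47.5% of the member UMIs in 12-week MASH and 33.3% in 24-week MASH.

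**Figure D1:**
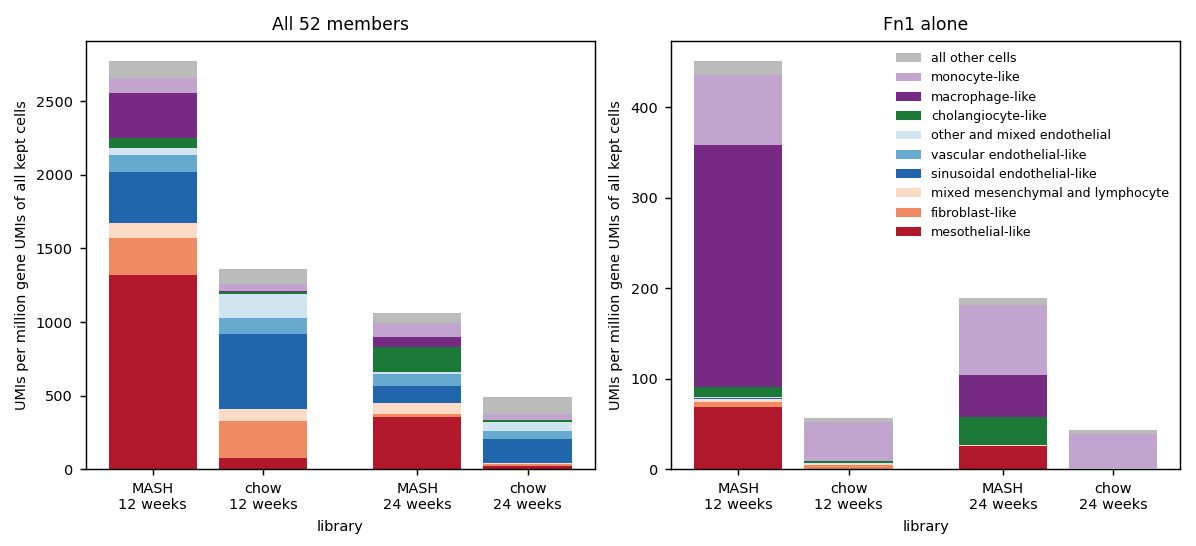
CPM over all kept cells, stacked by the class of cells that supplied them, for the 52 members together (left) and for Fn1 alone (right) in each library. The mesothelial-like segment is tall in both MASH libraries and short in both chow libraries, and macrophage-like cells supply most of the Fn1 in 12-week MASH.

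Collagens I and III were almost wholly mesenchymal. Of the Col1a1 UMIs, mesenchymal classes supplied 98.9% in 12-week MASH, 98.9% in 12-week chow, 97.2% in 24-week MASH and 89.2% in 24-week chow. The class within them differed, since mesothelial-like cells gave 80.4% of Col1a1 in 12-week MASH, whereas fibroblast-like cells gave 64.5% in 12-week chow. Dcn behaved likewise, with 98.7%, 98.6%, 97.0% and 87.2% from mesenchymal classes in 12-week MASH, 12-week chow, 24-week MASH and 24-week chow.

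Col4a1 and Hspg2 were mainly endothelial under both diets. Endothelial classes supplied 80.3% of Col4a1 in 12-week MASH, against 92.6% in 12-week chow, and 72.1% in 24-week MASH, against 91.2% in 24-week chow. Sparc differed in source: endothelial classes gave 37.4% of it in 12-week MASH, against 83.6% in 12-week chow, and 41.6% in 24-week MASH, against 86.9% in 24-week chow. Bgn did the same, with 39.0% from endothelial classes in 12-week MASH, against 85.0% in 12-week chow, and 25.0% in 24-week MASH, against 90.2% in 24-week chow. Sparc and Bgn thus had levels within 2-fold over all cells. Their endothelial share was 83.6% to 90.2% in the chow libraries and 25.0% to 41.6% in the MASH libraries. The rest was not mesenchymal alone: in 24-week MASH mesothelial-like cells held 3597 Sparc UMIs and cholangiocyte-like cells with Spp1 held 2430.

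Other members had leukocyte or duct sources. Macrophage-like cells supplied 59.5% of Fn1 in 12-week MASH and 24.9% in 24-week MASH, whereas monocyte-like cells supplied 75.2% in 12-week chow and 85.7% in 24-week chow. Vcan came mainly from monocyte-like cells in every library, at 61.8%, 64.1%, 86.6% and 90.1% in 12-week MASH, 12-week chow, 24-week MASH and 24-week chow. Thbs1 (thrombospondin 1) came 90.5% from neutrophil-like cells in 24-week chow, where 28.6% of those cells carried it. In 24-week MASH cholangiocyte-like cells gave 58.8% of Lama4, 59.3% of Efemp1, 44.6% of Cald1 and 73.8% of Myl9.

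The share of several source classes among kept cells differed between the diets. Mesothelial-like cells numbered 151 in 12-week MASH, against 34 in 12-week chow, and 83 in 24-week MASH, against 13 in 24-week chow, which gave share ratios of 5.19 (3.56 to 7.77) and 7.79 (4.32 to 15.2). With hashtags 5 to 8 of 24-week chow alone the 24-week ratio was 33.1, which rests on very few chow cells. Of the 13 mesothelial-like cells of 24-week chow 53.8% carried no hashtag. In the mesothelial-like subclusters of 24-week chow a single hashtag was carried by 1 of 4, 0 of 1 and 3 of 8 cells. In 12-week chow 50% of the 34 mesothelial-like cells carried no hashtag. Of the 151 in 12-week MASH, 39 carried hashtag 5 alone and 51 hashtag 6 alone. Macrophage-like cells numbered 493 in 12-week MASH, against 94 in 12-week chow, and 885 in 24-week MASH, against 16 in 24-week chow. Fibroblast-like cells were as frequent in 12-week MASH as in 12-week chow within counting error, with 34 and 43 cells and a share ratio of 0.924 (0.572 to 1.48), and only 5 and 2 such cells were found in 24-week MASH and 24-week chow. Sinusoidal endothelial-like cells had share ratios of 0.7999 and 0.710, and vascular endothelial-like cells 0.927 and 1.16.

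When the mesothelial-like cells were left out of the sum, the ratio over all other cells was 1.17 at 12 weeks and 1.55 at 24 weeks. Of the 27 members higher at 12 weeks 6 then kept their call, and of the 31 at 24 weeks 24 did. Col1a1, Col3a1 and Dcn were among those that lost the call at 12 weeks, and Dcn stood at 0.997.

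Fibroblast-like cells carried the members at the highest summed level, 64944 CPM in 12-week MASH and 62128 CPM in 12-week chow. Mesothelial-like cells followed with 40388 CPM in 12-week MASH, against 25068 CPM in 12-week chow, and 20846 CPM in 24-week MASH, against 23415 CPM in 24-week chow. Vascular endothelial-like cells held 6042 and 5738 CPM at 12 weeks and 8888 and 6584 CPM at 24 weeks, in MASH and chow in that order. Sinusoidal endothelial-like cells held 4122 and 4085 CPM at 12 weeks and 4745 and 3911 CPM at 24 weeks, again MASH first. With cells thinned to 1000 UMIs the order stayed the same: the median cell held 51 and 56 member UMIs among fibroblast-like cells of 12-week MASH and 12-week chow, 31 and 23 among mesothelial-like cells, 5 and 5 among vascular and 4 and 4 among sinusoidal endothelial-like cells.

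Of the 52 members, 35 had their highest level in fibroblast-like cells in 12-week MASH and 36 in 12-week chow. The class with the highest level was the same in both 12-week libraries for 42 members. At 24 weeks, where fibroblast-like cells were too few to be ranked, mesothelial-like cells ranked first for 32 members in 24-week MASH and 24 in 24-week chow. Vascular endothelial-like cells ranked first for 14 and 11.

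**Figure D2:**
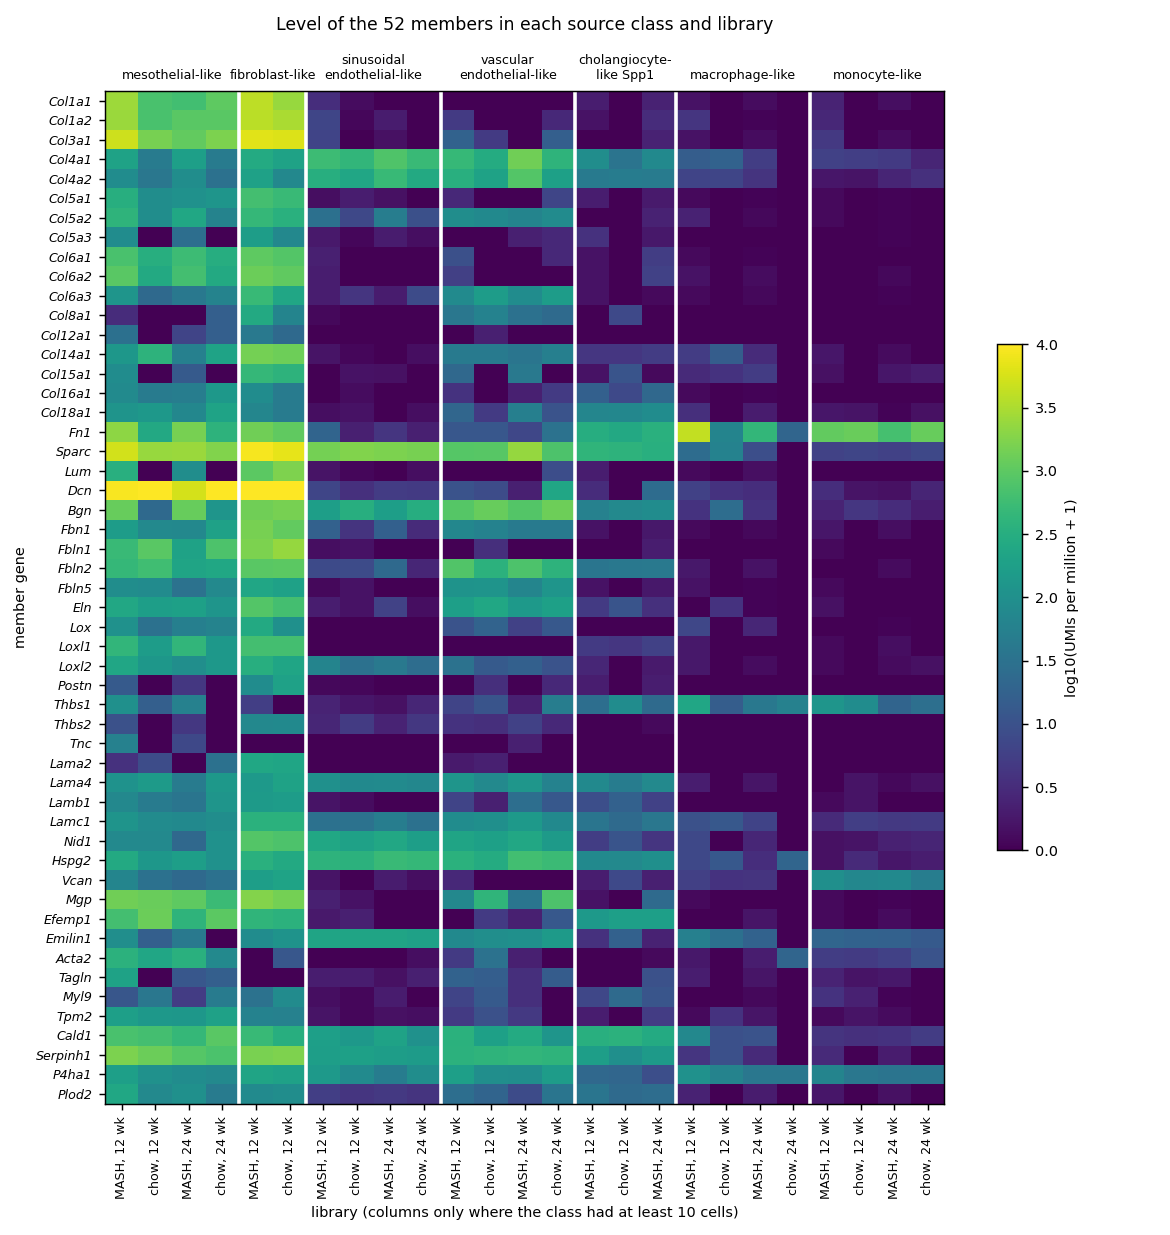
Level of each member (rows) in each source class and library (columns), as log10 of the CPM level with 1 added, with levels past the top of the scale drawn in its last colour. Fibrillar collagens and Dcn are bright in mesothelial-like and fibroblast-like cells, Col4a1, Col4a2 and Hspg2 are also bright in endothelial-like cells, and Fn1 is bright in macrophage-like cells of 12-week MASH.

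Mesothelial-like cells had the most members called between the diets of the single classes compared, and the counts differed between the weeks. Their summed level was 1.61-fold (1.56 to 1.67) that of chow at 12 weeks and 0.890-fold (0.846 to 0.937) at 24 weeks. At 12 weeks 25 of 50 members with enough UMIs were higher and 2 lower, where 3.34% of all genes were higher and 5.52% lower. At 24 weeks 8 of 45 were higher and 10 lower, where 2.45% of all genes were higher and 5.56% lower. The members' median log2 ratio was 0.96 beside -0.12 for all genes at 12 weeks, and -0.21 beside -0.24 at 24 weeks. The chow side rests on 34 and 13 cells. Without cells carrying several hashtags 18 of the 27 calls at 12 weeks were kept, and Col6a1, Col12a1, Sparc, Fbn1, Lox, Thbs1, Tnc, Hspg2 and Tagln lost theirs.

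The chains of collagens I and III were higher at 12 weeks but not at 24 weeks in this class, whereas Col5a2 was higher at both. Col1a1 had 2614 CPM in 12-week MASH, against 717.7 CPM in 12-week chow, and 614.3 CPM in 24-week MASH, against 1020 CPM in 24-week chow. The ratios were 3.64 (2.97 to 4.51) and 0.602. Col3a1 had 4936 CPM in 12-week MASH, against 1488 CPM in 12-week chow, and 1088 CPM in 24-week MASH, against 1605 CPM in 24-week chow. For both genes the 12-week MASH value was the highest of the 4 and the 24-week MASH value the lowest. Col1a2 followed with 2497 CPM in 12-week MASH, against 710.2 CPM in 12-week chow, and nearly equal values at 24 weeks, 947.8 CPM in MASH and 930 CPM in chow.

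Bgn, Fn1, Col4a1, Col5a2, Col6a2, Loxl1 and Lum were higher at both weeks. Bgn had 1184 CPM in 12-week MASH, against 22.7 CPM in 12-week chow, and 1184 CPM in 24-week MASH, against 120 CPM in 24-week chow, ratios of 52.2 (17.9 to 254) and 9.87 (4.997 to 22.9). It was seen in 129 of 151 cells and 79 of 83 cells of 12-week and 24-week MASH, against 3 of 34 and 2 of 13 cells of 12-week and 24-week chow. Thinned to equal depth, the shares were 42.9% in 12-week MASH, against 0 in 12-week chow, and 65.4% in 24-week MASH, against 7.69% in 24-week chow, while T-cell-like cells stayed between 0.245% and 0.564%. Both MASH values lay above both chow values, and Bgn was spread over most MASH cells of the class.

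Fn1 had 2103 CPM in 12-week MASH, against 256.9 CPM in 12-week chow, and 1528 CPM in 24-week MASH, against 390 CPM in 24-week chow, ratios of 8.19 (5.85 to 11.8) and 3.92 (2.67 to 6.01). In 24-week chow 57.7% of its UMIs lay in 1 cell. Col4a1 was 4.45-fold and 3.99-fold higher, Col5a2 4.37-fold and 4.06-fold, Col6a2 3.48-fold and 2.35-fold, and Loxl1 2.74-fold and 3.17-fold. Lum (lumican, a regulator of fibril width) had 333.3 CPM in 12-week MASH and 91.5 CPM in 24-week MASH and 0 UMIs in either chow library. Against a floor of 3 counts per library its ratios were 14.7 at 12 weeks and 2.03 at 24 weeks. These are not lower ends of intervals. The Lum UMIs lay in 28 and 12 cells of the MASH libraries.

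Col14a1, a collagen that decorates fibril surfaces, was the member lower at both weeks, with 129.8 CPM in 12-week MASH, against 385.3 CPM in 12-week chow, and 54.2 CPM in 24-week MASH, against 210 CPM in 24-week chow. Fbn1 (fibrillin 1, the microfibril scaffold) was higher at 12 weeks and lower at 24 weeks. Dcn was not called at either week, with 9273 CPM in 12-week MASH, against 10290 CPM in 12-week chow, and 5575 CPM in 24-week MASH, against 10140 CPM in 24-week chow. Further members lower at 24 weeks were Nid1 (nidogen), at a ratio of 0.201, Fbln1 at 0.268 and Lamb1 at 0.293. The 24-week calls of Col14a1, Fbn1 and Lamb1 did not hold without the cell that had the most UMIs, and those of Fbn1 and Lamb1 did not hold without doublet removal.

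Some calls at both weeks rested on single cells. Without the cell that had the most UMIs of each gene, 23 of 27 calls were kept at 12 weeks and 11 of 18 at 24 weeks. Tagln (transgelin, an actin-binding protein of smooth muscle) had 363 UMIs in 12-week MASH and 0 in 12-week chow, but 92.0% of them came from 1 of the 6 cells that carried it. Tnc (tenascin C) had 104 UMIs in 12-week MASH with 96.2% in 1 cell. Neither call held without that cell. Col15a1 had 159 UMIs in 19 cells of 12-week MASH and 0 in 12-week chow.

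The class was not uniform, and its make-up differed between libraries. Subclusters were drawn without the member genes. A subcluster led by Sprr1a and Cxcl5 held 38 cells of 12-week MASH and 25 of 24-week MASH and 0 cells of either chow library. Its members stood at 52901 CPM in 12-week MASH and 30249 CPM in 24-week MASH. It supplied 89.5% of the class's Col1a1, 94.99% of its Fn1, 99.2% of its Lum and 72.7% of its Bgn in 12-week MASH. All 6 mesothelial markers, 12 of 14 stellate markers and 14 of 14 fibroblast markers had UMIs in these cells, at median depths of 20360 and 15900 UMIs per cell. So did 6 of 7 T, 6 of 6 B and 5 of 9 Kupffer markers. The stellate set stood at 1480 CPM here and at 1170 to 1466 CPM in the other mesothelial-like subclusters. The fibroblast set stood at 2666 CPM here and at 2532 to 8469 CPM there. The part of mixed droplets in the profile of these cells was not tested.

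The subcluster that held at least 10 cells in both 12-week libraries gave a different picture. Ptprb and Nrgn led it, and Clec4g, Gpihbp1 and Kdr, which like Ptprb are known from endothelium, were among its 10 leading genes. With 22 cells of 12-week MASH and 30 of 12-week chow, its summed level was 22864 and 25154 CPM, a ratio of 0.909 (0.870 to 0.9503). Of 38 members compared, 1 was higher and 3 lower, where 3.47% of all genes were higher and 4.52% lower. Bgn was the 1 that was higher, with 657.1 CPM in MASH, against 24.2 CPM in chow, a ratio of 27.1 (9.11 to 133). Fn1 was lower there, with 84.8 CPM in MASH, against 226 CPM in chow, and so were Fbln2 and Acta2. Col1a1 stood at 449.4 CPM in MASH, against 694.2 CPM in chow. In this subcluster Bgn was thus called in the same direction as in the class, Fn1 in the opposite one, and Col1a1 and Col3a1 were not called. Bgn was also abundant in endothelial-like cells, and the part of mixed droplets in these values was not tested.

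**Figure D3:**
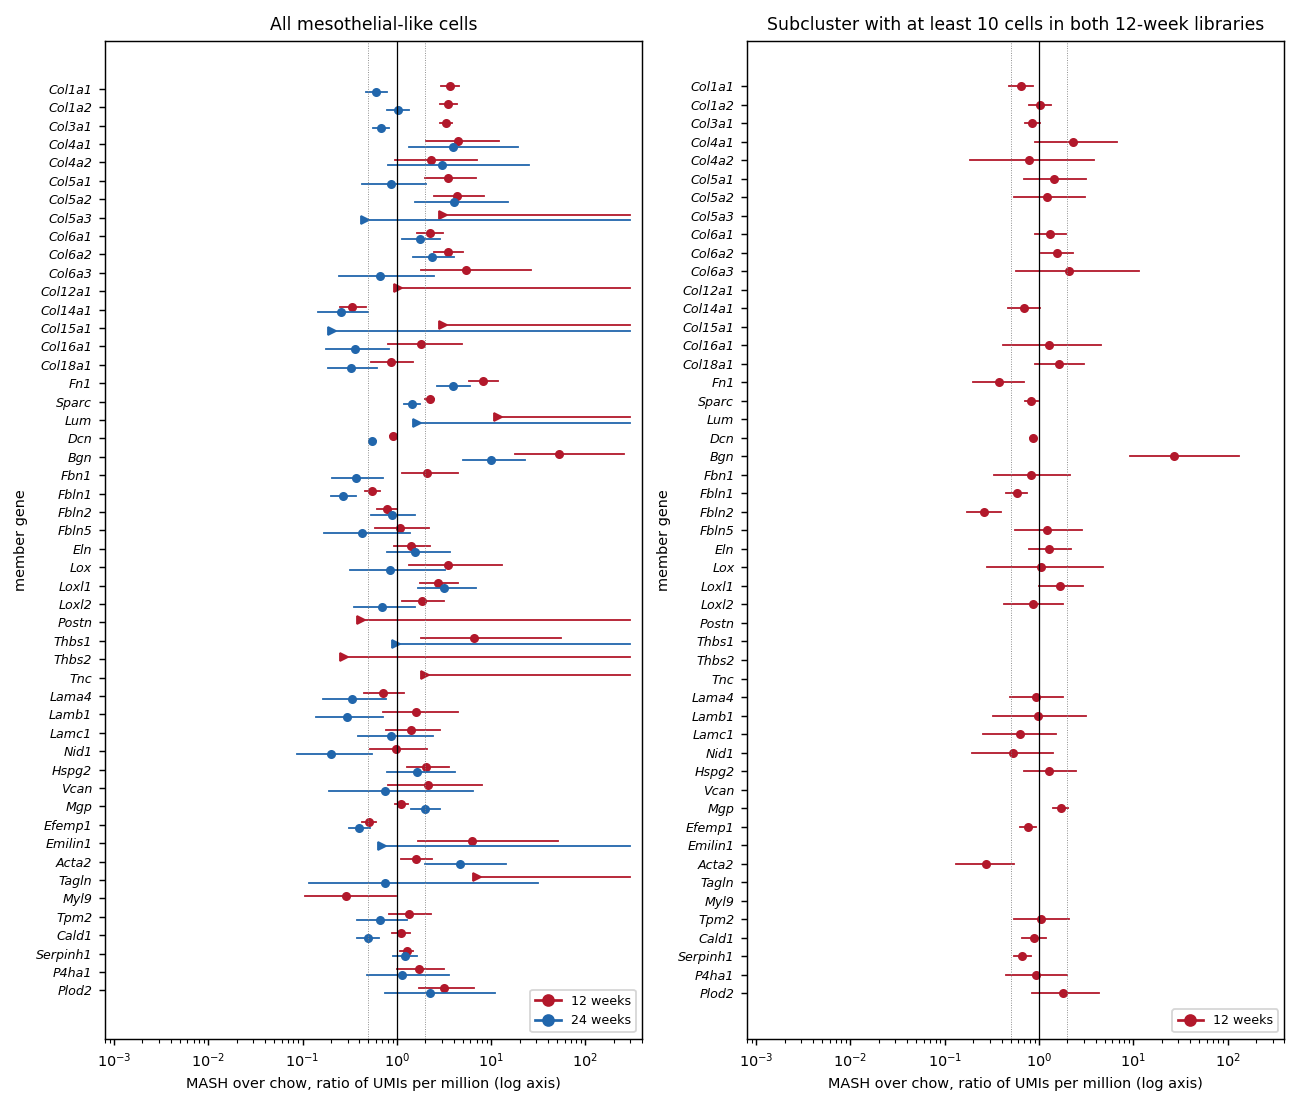
Ratio of MASH over chow for each member in all mesothelial-like cells at 12 and 24 weeks (left) and in the subcluster with at least 10 cells in both 12-week libraries (right), on log axes with 95% counting intervals; arrowheads mark ratios against 0 UMIs, and bars that pass the axis end there. Bgn lies far to the right in both panels, whereas Col1a1, Col3a1 and Fn1 lie right of 1 at 12 weeks in the left panel and at or left of 1 in the right panel.

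The sequences just upstream of 3 members are shown because these members had different behaviour. Bgn was higher in the mesothelial-like subcluster present in both 12-week libraries. Col3a1 was higher in the mesothelial-like class at 12 weeks but was not called in that subcluster. Col15a1 had UMIs in vascular endothelial-like cells of both MASH libraries and 0 in those of chow. Its level in fibroblast-like cells was 457.4 CPM in 12-week MASH, against 378.5 CPM in 12-week chow. Each is the 250 bases before the RefSeq start on GRCm38.p6, plus strand, read 5′ to 3′, at chrX:73483351-73483600 for Bgn, chr1:45311288-45311537 for Col3a1 and chr4:47207762-47208011 for Col15a1, with 0 exon bases in each window. Capitals mark matches to the searched motifs.
Bgn: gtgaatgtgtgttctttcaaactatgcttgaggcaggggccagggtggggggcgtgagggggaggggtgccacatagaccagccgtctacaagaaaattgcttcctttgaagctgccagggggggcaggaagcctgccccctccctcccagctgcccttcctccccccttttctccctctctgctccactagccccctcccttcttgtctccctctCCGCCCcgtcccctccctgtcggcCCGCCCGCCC
Col3a1: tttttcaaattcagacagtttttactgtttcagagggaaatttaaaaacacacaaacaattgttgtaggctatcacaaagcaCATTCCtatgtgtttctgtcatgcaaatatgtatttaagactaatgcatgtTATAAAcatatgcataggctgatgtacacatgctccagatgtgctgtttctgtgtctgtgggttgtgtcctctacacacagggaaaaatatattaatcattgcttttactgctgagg
Col15a1: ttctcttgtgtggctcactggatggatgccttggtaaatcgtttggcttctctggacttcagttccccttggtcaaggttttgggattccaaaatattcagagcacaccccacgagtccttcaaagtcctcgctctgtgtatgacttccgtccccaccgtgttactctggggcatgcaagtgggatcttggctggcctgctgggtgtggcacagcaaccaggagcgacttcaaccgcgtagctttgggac

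In Bgn the capitals are 3 matches to GGGCGG on the minus strand, printed as CCGCCC, beginning 34, 10 and 6 bases before the start, and the last pair overlap. In Col3a1 they are CATTCC, beginning 168 bases before the start, and TATAAA, beginning 117 bases before it. Col15a1 held none of the motifs searched. RefSeq held an upstream window for 35 of the 52 members. On either strand GGGCGG was found in 23 of 35 members, or 65.7%, beside 35.4% of all genes. TATAAA was found in 5 of 35, or 14.3%, beside 14.3%, and CCAAT in 12, or 34.3%, beside 37.5%. The CArG box was found in 2 (Lama2 and Myl9), or 5.71%, beside 1.62%, TGANTCA in 3, or 8.57%, beside 7.82%, and CATTCC in 6, or 17.1%, beside 14.4%. A match describes letters and not a bound site.

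Fibroblast-like cells could be compared at 12 weeks and their matrix genes differed little. The summed ratio was 1.05 (1.02 to 1.07). Of 48 members compared 5 were higher, 2 lower and 29 had intervals within 2-fold in both directions, where 1.71% of all genes were higher and 2.66% lower. The median log2 ratio was 0.26 for the members and -0.06 for all genes. Col1a1 had 3931 CPM in 12-week MASH, against 2390 CPM in 12-week chow, Col3a1 6630 CPM against 6079 CPM, and Dcn 17310 CPM against 20940 CPM, and none of them was called. The abundant fibrillar products of these cells thus lay within 2-fold of each other.

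The called members were mostly scarce ones. Col8a1, a short-chain collagen, had 267.2 CPM in 12-week MASH, against 62.1 CPM in 12-week chow, a ratio of 4.30 (2.24 to 9.08), with UMIs in 8 of 34 and 6 of 43 cells. Lox, the oxidase that crosslinks collagen, had 271.7 CPM in MASH, against 101.7 CPM in chow, a ratio of 2.67. Col4a2, Col5a3 and Col6a3 were 2.59-fold, 2.28-fold and 2.15-fold higher. Postn (periostin) was lower, with 86.0 CPM in MASH, against 192.1 CPM in chow, carried by 4 and 10 cells, and so was Myl9, at a ratio of 0.374. Without doublet removal 1 of these 7 calls was kept, and Col8a1 stood at 0.503.

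The class held a subcluster led by Inmt and C7 and one led by Pi16. In the Inmt-led cells (19 of 12-week MASH and 21 of 12-week chow) the summed level was 83338 CPM in MASH, against 78238 CPM in chow, with 7 members higher and 1 lower, where 2.97% of all genes were higher and 2.76% lower. In the Pi16-led cells (15 and 22) it was 44282 CPM in MASH, against 47042 CPM in chow, with 2 higher and 3 lower, where 2.27% were higher and 2.76% lower.

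Sinusoidal endothelial-like cells, the fenestrated lining of liver capillaries, kept nearly the same summed level at 12 weeks, with a ratio of 1.01 (0.990 to 1.03), and 1.21 (1.18 to 1.25) at 24 weeks. At 12 weeks 8 of 27 members were higher and 2 lower, where 2.1% of all genes were higher and 2.64% lower. At 24 weeks 4 of 21 were higher and 1 lower, where 2.99% were higher and 3.01% lower. Several members called at 12 weeks had low levels: Col1a1, Col1a2, Col3a1, Dcn and Fn1 had 2.35, 5.76, 5.55, 5.98 and 18.6 CPM in these cells of 12-week MASH, beside 1.11, 2.21, 4.06, 5.99 and 16.2 CPM in T-cell-like cells of the same library. With the T-cell-like level subtracted 9 of the 10 calls were kept, and Dcn lost its call.

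Col5a2 and Fbn1 were called higher at both weeks. Col5a2, a chain of fibril-nucleating collagen V, had 29.3 CPM in 12-week MASH, against 6.24 CPM in 12-week chow, and 48.2 CPM in 24-week MASH, against 8.49 CPM in 24-week chow, ratios of 4.69 (3.20 to 7.04) and 5.67 (3.47 to 9.70). Fbn1 had 16.4 CPM in 12-week MASH, against 2.94 CPM in 12-week chow, and 15.9 CPM in 24-week MASH, against 2.12 CPM in 24-week chow. Both MASH libraries lay above both chow libraries for these genes. Loxl2 had 61.9 CPM in 12-week MASH, against 29.6 CPM in 12-week chow, a ratio of 2.09, and was called at 12 weeks. Fbln2 (fibulin 2) differed at 24 weeks, with 22.0 CPM in 24-week MASH, against 1.70 CPM in 24-week chow, and stood at 7.05 CPM in 12-week MASH and 7.16 CPM in 12-week chow.

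The basement membrane genes of sinusoidal endothelial-like cells lay within 2-fold. Col4a1 had 551.9 CPM in 12-week MASH, against 429 CPM in 12-week chow, and 801.1 CPM in 24-week MASH, against 506.4 CPM in 24-week chow, ratios of 1.29 and 1.58. Hspg2 had 381.5 CPM in 12-week MASH, against 364.9 CPM in 12-week chow, and 512.7 CPM in 24-week MASH, against 459.7 CPM in 24-week chow. Bgn went the other way from mesothelial-like cells, with 175.5 CPM in 12-week MASH, against 316.9 CPM in 12-week chow, and 173.1 CPM in 24-week MASH, against 305.6 CPM in 24-week chow, ratios of 0.554 and 0.566 that did not reach the call. Col6a3 was lower at both weeks.

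Vascular endothelial-like cells, which line larger vessels, differed more in Col4a1 than sinusoidal endothelial-like cells did. Col4a1 had 473.9 CPM in 12-week MASH, against 290.4 CPM in 12-week chow, and 1365 CPM in 24-week MASH, against 399.5 CPM in 24-week chow, ratios of 1.63 and 3.42 (2.94 to 3.98). It was seen in 66.1% of cells in 12-week MASH, against 40.8% in 12-week chow, and in 89.0% in 24-week MASH, against 59.9% in 24-week chow. At equal depth these shares were 31.8% against 24.6% at 12 weeks and 56.0% against 35.8% at 24 weeks, MASH against chow. The 24-week difference thus appeared both in the number of cells with a UMI and in the level.

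Col4a2 had 328.2 CPM in 12-week MASH, against 200.7 CPM in 12-week chow, and 851.6 CPM in 24-week MASH, against 186.3 CPM in 24-week chow, ratios of 1.64 and 4.57 (3.69 to 5.71). Col4a1 and Col4a2 lie head to head on chromosome 8 of GRCm38, at 11198423 to 11312826 on the minus strand and 11312805 to 11449287 on the plus strand in GENCODE M21. Their annotated starts overlap by 22 bases. Sparc had 870.7 CPM in 12-week MASH, against 917.3 CPM in 12-week chow, and 2364 CPM in 24-week MASH, against 768.3 CPM in 24-week chow, a ratio of 3.08 at 24 weeks. In the class as a whole all 3 were called at 24 weeks and not at 12 weeks. The difference between the weeks was not tested.

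At 12 weeks 5 of 34 members were higher in vascular endothelial-like cells and 3 lower, where 2.29% of all genes were higher and 3.38% lower. At 24 weeks 7 of 30 were higher and 5 lower, where 4.11% were higher and 3.97% lower. Col15a1, whose collagen bridges basement membrane and stroma, had 21.6 and 40.2 CPM in 12-week and 24-week MASH and 0 UMIs in either chow library. It was called higher at both weeks. Against a floor of 3 counts per library its ratios were 5.78 at 12 weeks and 6.97 at 24 weeks, which are not lower ends of intervals. Col15a1 was carried by 5 and 11 MASH cells, and 52.2% of its 12-week UMIs lay in 1 cell. Col18a1, the precursor of endostatin, was 5.28-fold and 5.45-fold higher, from 3 and 5 UMIs in 12-week and 24-week chow. Its 24-week ratio was 0.749 without doublet removal, and the 24-week call was lost with hashtags 1 to 4 of chow alone and in each of the class's clusters alone. Fbln2 had 811.5 CPM in 12-week MASH, against 373.9 CPM in 12-week chow, and 765.3 CPM in 24-week MASH, against 388 CPM in 24-week chow, called at 12 weeks and at a ratio of 1.97 at 24 weeks. Lama4 and Cald1 were 2.15-fold and 2.28-fold higher at 24 weeks.

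Mgp, an inhibitor of calcification, was lower at both weeks, with 72.4 CPM in 12-week MASH, against 416.3 CPM in 12-week chow, and 35.3 CPM in 24-week MASH, against 775.9 CPM in 24-week chow. In the chow libraries it was concentrated: 64.7% of its 12-week UMIs lay in 1 cell, and 2 cells held at least 50% of those at 24 weeks. The 24-week chow values of Dcn and Thbs1 came from 3 cells each, so these lower calls describe few cells.

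The class joined 2 clusters whose balance differed, with 85 and 78 cells in 24-week MASH, against 140 and 32 in 24-week chow. The summed ratio of 1.35 (1.30 to 1.41) for the class at 24 weeks was 1.13 in the first cluster alone and 1.26 in the second alone. Col4a2 was higher in each of them at 24 weeks, and Col4a1 and Sparc in the second. At 12 weeks Col4a1 and Col4a2 were called higher in the second cluster, at 2.69 (2.10 to 3.48) and 2.58 (1.85 to 3.64). In the first cluster they stood at 1.27 and 1.36 at 12 weeks and were not called. At 12 weeks the class ratio was 1.05 (1.01 to 1.09). Among hashtags with enough cells the summed level ran from 8700 to 10977 CPM over 6 hashtags of 24-week MASH, against 5656 to 7681 CPM over 4 hashtags of 24-week chow. These ranges did not overlap, though what a hashtag stands for is not given.

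**Figure D4:**
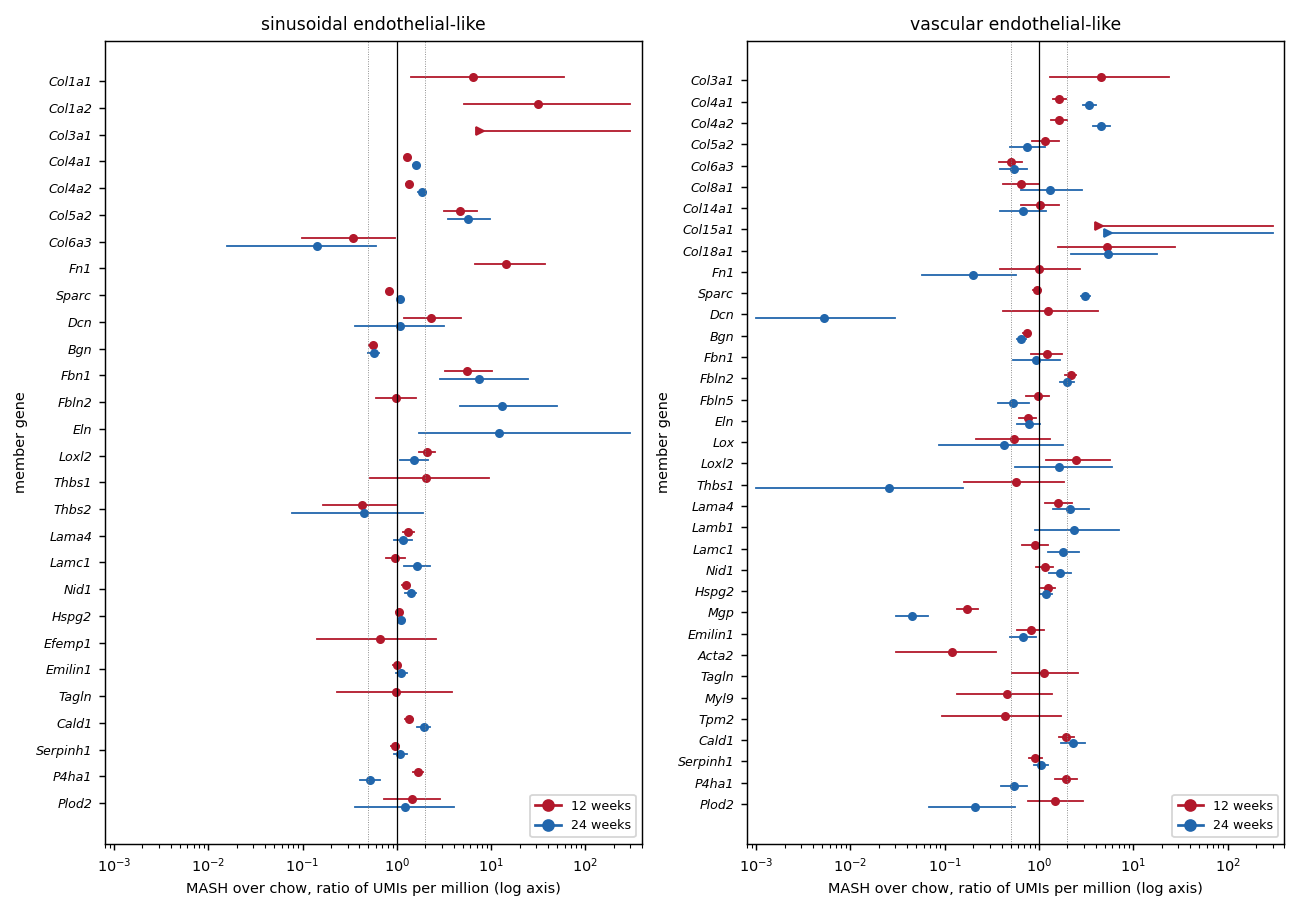
Ratio of MASH over chow for each member with enough UMIs in sinusoidal (left) and vascular (right) endothelial-like cells at 12 and 24 weeks, on log axes with 95% counting intervals; arrowheads mark ratios against 0 UMIs, and bars that pass the axis end there. Col5a2 and Fbn1 lie right of 2 at both weeks on the left, and Col4a1, Col4a2 and Sparc are farther right at 24 than at 12 weeks on the right.

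Cholangiocyte-like cells line bile ducts and had their own matrix profile. Those with Spp1 numbered 146 in 12-week MASH, against 44 in 12-week chow, and 553 in 24-week MASH, against 4 in 24-week chow, so levels could be compared at 12 weeks alone. Their summed level was 2010 CPM in 12-week MASH, against 1936 CPM in 12-week chow, a ratio of 1.04 (0.951 to 1.13), and 2036 CPM in 24-week MASH. Fn1 had 310.9 CPM in 12-week MASH, against 257.3 CPM in 12-week chow, and 349.4 CPM in 24-week MASH. It was seen in 86.3% of cells in 12-week MASH and 83.4% in 24-week MASH. Sparc, Cald1 and Efemp1 had 413.6, 334.1 and 143.6 CPM in 12-week MASH, against 379.3, 369.4 and 181.4 CPM in 12-week chow.

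Of 22 members compared, Col4a1 was the 1 that was higher, with 91.1 CPM in 12-week MASH, against 33.0 CPM in 12-week chow, and 3 were lower (Thbs1, Emilin1 and Myl9), where 2.55% of all genes were higher and 4.92% lower. The Thbs1 value of 12-week chow came 88.5% from 1 cell, and without the top cell of each library the ratio was 2.29. The larger share of member UMIs from duct cells in 24-week MASH thus stood beside more such cells, at a summed level close to that at 12 weeks. In the smaller cholangiocyte-like class with Dmbt1 (12 cells of 12-week MASH and 26 of 12-week chow) 2 of 10 members were higher (Col4a2 and Fn1) and 2 lower (Sparc and Lamb1), where 2.3% of all genes were higher and 3.37% lower.

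Macrophage-like cells differed in Fn1 above all. Their summed level was 4797 CPM in 12-week MASH, against 341.8 CPM in 12-week chow, and 601.4 CPM in 24-week MASH, against 151.3 CPM in 24-week chow. Fn1 had 4220 CPM in 12-week MASH, against 63.2 CPM in 12-week chow, a ratio of 66.8 (44.1 to 107). At 24 weeks it had 445.2 CPM in MASH, against 18.9 CPM in chow, where 1 UMI gives the ratio of 23.5 an interval of 4.22 to 930. It was seen in 206 of 493 cells in 12-week MASH, against 5 of 94 in 12-week chow, and in 240 of 885 in 24-week MASH, against 1 of 16 in 24-week chow. At equal depth these shares were 38.7% in 12-week MASH, against 2.47% in 12-week chow, and 12% in 24-week MASH, against 0 of 16 cells in 24-week chow. T-cell-like cells reached at most 1.68%.

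At 12 weeks 3 of 18 members were higher (Fn1, Thbs1 and Cald1) and 2 lower (Sparc and Bgn), where 4.34% of all genes were higher and 8.27% lower. At 24 weeks Fn1 alone was called among 19 members, where 0.817% of all genes were higher and 3.21% lower. Thbs1 had 229.4 CPM in 12-week MASH, against 14.4 CPM in 12-week chow, and all chow UMIs lay in 1 cell. Without subclusters led by genes of other cell types, which left 28 of the 94 cells of 12-week chow, the 3 higher calls were kept and those of Sparc and Bgn were lost. Without doublet removal the calls of Thbs1, Cald1 and Sparc were lost, and Thbs1 stood at 0.623 and Sparc at 2.13.

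The Fn1 of macrophage-like cells was not evenly spread. A subcluster led by Prg4 and Saa3 held 50 cells of 12-week MASH and 2 of 24-week MASH, with Fn1 at 13540 CPM in 12-week MASH, and gave 57.6% of the class's Fn1 in that library. One led by Arg1 and Ltc4s held 98 cells of 12-week MASH, 1 of 12-week chow and 27 of 24-week MASH, with Fn1 at 7243 CPM in 12-week MASH and 5428 CPM in 24-week MASH. Without the Prg4-led cells the summed ratio at 12 weeks was 7.68, against 14.04 (11.7 to 16.95) for the class. Between hashtags the summed level ran from 1458 to 7992 CPM in 12-week MASH, against 78.6 to 333.6 CPM in 12-week chow. Without doublet removal the clustering put Prg4-positive cells elsewhere, and the class ratio was 1.60 at 12 weeks and 1.71 at 24 weeks, so the size of the difference depends on which cells are counted as macrophage-like.

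**Figure D5:**
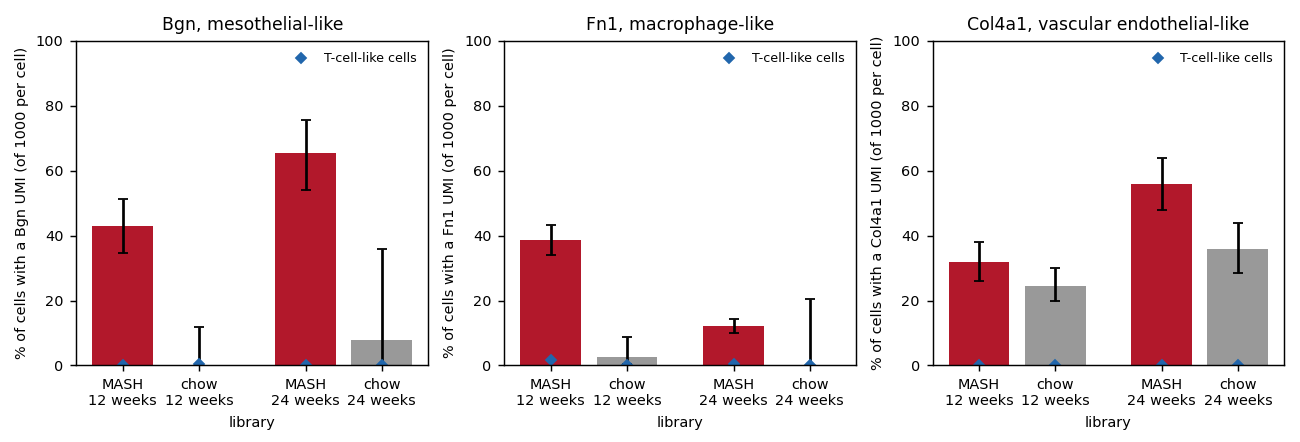
Percent of cells with at least 1 UMI, after thinning to 1000 UMIs per cell, for Bgn in mesothelial-like, Fn1 in macrophage-like and Col4a1 in vascular endothelial-like cells of each library, with exact 95% intervals; diamonds show T-cell-like cells of the same library. The MASH bar is the taller of each pair at both weeks, and T-cell-like cells lie near 0.

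Monocyte-like cells, the main Fn1 and Vcan source in chow, held the members at 1454 CPM in 12-week MASH, against 1443 CPM in 12-week chow, and 843.5 CPM in 24-week MASH, against 1321 CPM in 24-week chow. The ratios were 1.01 (0.959 to 1.06) and 0.638 (0.610 to 0.668). Of 14 members 1 (Col3a1, near the T-cell-like level) was called at 12 weeks, where 1.96% of all genes were higher and 2.23% lower. At 24 weeks 0 were called, where 3.11% were higher and 1.75% lower. More monocyte-like cells in MASH, 643 against 366 at 12 weeks and 1318 against 386 at 24 weeks, therefore stood beside a CPM level that was equal or lower.

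The contractile members did not form a block. Over all kept cells Acta2 had 13.3 CPM in 12-week MASH, against 2.28 CPM in 12-week chow, a ratio of 5.83, and 9.38 CPM in 24-week MASH, against 4.74 CPM in 24-week chow, a ratio of 1.98 that was not called. Mesothelial-like cells supplied 91.3% of it in 12-week MASH and 63.2% in 24-week MASH, whereas neutrophil-like cells supplied 85.6% in 24-week chow. In mesothelial-like cells Acta2 had 372 CPM in 12-week MASH, against 234.2 CPM in 12-week chow, and 349 CPM in 24-week MASH, against 75 CPM in 24-week chow. It was called at 24 weeks, where 63.3% of the MASH UMIs lay in 1 cell.

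Myl9, a myosin light chain, stood at 0.752 at 12 weeks and was 9.02-fold higher at 24 weeks over all cells, mostly from cholangiocyte-like cells. Tpm2 (a tropomyosin) was 4.43-fold and 2.78-fold higher over all cells. Cald1 (caldesmon) had 77.8 CPM in 12-week MASH, against 57.5 CPM in 12-week chow, and 53.5 CPM in 24-week MASH, against 30.6 CPM in 24-week chow, and came mostly from hepatocyte-like cells in 24-week chow (59.6%). Of 27 other contractile genes, 25 could be compared over all cells at each week, and 2 were higher at 12 weeks and 4 at 24 weeks, with 0 lower, where 8.62% and 13.9% of all genes were higher. Synpo2 and Des were higher at both.

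The collagen maturation genes were less uniform than the collagens. Plod2, which hydroxylates collagen lysines, had 15.1 CPM in 12-week MASH, against 3.43 CPM in 12-week chow, and 6.91 CPM in 24-week MASH, against 2.34 CPM in 24-week chow, and was higher at both weeks. Serpinh1 had ratios of 1.79 and 2.43 and was called at 24 weeks. P4ha1, a prolyl hydroxylase subunit, had 66.7 CPM in 12-week MASH, against 35.5 CPM in 12-week chow, and 21.4 CPM in 24-week MASH, against 28.8 CPM in 24-week chow, called at neither. In mesothelial-like cells Plod2 was 3.15-fold higher at 12 weeks, and Serpinh1 had 1628 CPM in 12-week MASH, against 1284 CPM in 12-week chow.

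Later libraries held less matrix RNA than earlier ones under both diets. Over all kept cells the 24-week level over the 12-week level was 0.383 in MASH, with 0 members higher and 37 lower of 52, where 8.88% of all genes were higher and 6.04% lower. In chow it was 0.361, with 2 higher and 37 lower of 51, where 6.25% were higher and 7.93% lower. Mesothelial-like cells of MASH stood at 20846 CPM at 24 weeks, against 40388 CPM at 12 weeks, with 0 members higher and 28 lower of 50, where 3.78% of all genes were higher and 6.53% lower. In chow the ratio for these cells was 0.934, with 2 higher and 3 lower of 34, where 2.78% were higher and 4.2% lower.

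Vascular endothelial-like cells of MASH went the other way, at 1.47-fold at 24 weeks over 12 weeks, with 5 members higher (Col4a1, Col4a2, Col18a1, Sparc and Lamb1) and 6 lower of 31, where 4.66% of all genes were higher and 2.71% lower. In chow the ratio was 1.15, with 3 higher and 3 lower of 31, where 2.72% were higher and 2.86% lower. Macrophage-like cells of MASH stood at 0.125 of their 12-week level, with 0 higher and 12 lower of 24, where 5.67% were higher and 5.13% lower. In macrophage-like cells of chow 4 members could be compared and 0 were called, where 3.57% of all genes were higher and 2.37% lower.

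In sinusoidal endothelial-like cells the later library stood at 1.15 of the earlier one in MASH, with 2 members higher (Fbln2 and Eln) and 5 lower of 24, where 3.8% of all genes were higher and 1.4% lower. In chow it stood at 0.957, with 1 higher (Col6a3) and 1 lower (Fbln2) of 21, where 3.34% were higher and 1.37% lower. Cholangiocyte-like cells with Spp1 in MASH stood at 1.01, with 5 higher and 1 lower of 38, where 3.2% were higher and 1.62% lower. The 5 were Col6a1, Col6a2, Dcn, Mgp and Tagln, carried by 7, 4, 9, 3 and 9 of the 553 cells of 24-week MASH. Of their UMIs there, 95.3% for Mgp and 77.8% for Col6a2 lay in 1 cell. Cholangiocyte-like cells with Dmbt1 in chow stood at 0.806, with 1 higher and 1 lower of 14, where 3.37% were higher and 3.33% lower. Monocyte-like cells stood at 0.580 in MASH, with 0 higher and 4 lower of 19, where 7.25% were higher and 1.18% lower, and at 0.915 in chow, with 0 higher and 1 lower of 10, where 3.38% were higher and 1.62% lower. Weeks and library preparation cannot be told apart.

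Other genes of the pathway were followed in 3 lists chosen for their function. Of 64 other matrix and matrix-processing genes, 19 were higher and 1 lower of 63 compared over all cells at 12 weeks, with a median log2 ratio of 0.67, and 35 higher and 3 lower of 62 at 24 weeks, with a median of 1.21. Of all genes 8.62% were higher and 3.5% lower at 12 weeks, and 13.9% higher and 4.23% lower at 24 weeks. Of 24 matrix receptors, 10 of 24 were higher at 12 weeks and 12 of 23 at 24 weeks, with 0 lower. Within mesothelial-like cells Ltbp2, which binds microfibrils, and the collagen chaperone Fkbp10 were higher at both weeks, while Nid2 and Fmod were lower. Ltbp2 had 72.5 CPM in 12-week MASH and 105.6 CPM in 24-week MASH, against 0 UMIs in both chow libraries. The hyaluronan receptor Cd44 and the actin crosslinker Actn1 were also higher at both weeks, Actn1 at 201.8 CPM in 12-week MASH, against 45.3 CPM in 12-week chow, and 298.4 CPM in 24-week MASH, against 45 CPM in 24-week chow.

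In sinusoidal endothelial-like cells 4 other matrix genes were lower at both weeks: the rarer collagen IV chains Col4a3 and Col4a4, Tnxb and Tgfbi. Col4a4 had 2.14 CPM in 12-week MASH, against 9.55 CPM in 12-week chow, and 0 UMIs in 24-week MASH, against 14.01 CPM in 24-week chow. Spon1 was lower at both weeks in vascular endothelial-like cells. These scarce collagen IV chains therefore stood on the opposite side from Col4a1 and Col4a2 in the same cells, whose ratios were above 1.

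Across 71 profiles of a class in a library, the genes outside the module whose log2 level followed the summed members most closely included Rusc2 (Pearson r = 0.884), Pmp22 (0.883), Selenom (0.882), Fkbp9 (0.882), Flrt2 (0.881), Kank1 (0.877), Amotl2 (0.875), Zfp503 (0.873) and Aebp1 (0.871). The profiles share libraries and depth, and these values are a description.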

How the data were processed

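Mouse liver cells were measured by 10x 5′ single-cell RNA-seq in 4 libraries, 1 per group. The authors deposited raw UMI counts made with Cell Ranger (5.0.1 for 3 libraries and 4 for 12-week MASH), per the file headers. Genome builds mm10 and GRCh38 are both listed in the submitters' processing notes, and which role each had is not given. The deposited barcode list of 12-week MASH could not name its columns, so cells were the columns with at least 500 gene UMIs.

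Cells with at least 500 gene UMIs, 300 genes and at most 15% mitochondrial UMIs were used (17225, 18436, 19953 and 27291 in 12-week MASH, 12-week chow, 24-week MASH and 24-week chow), giving 56230427, 43461141, 83707604 and 58631974 UMIs after Scrublet (Scanpy 1.11.5) removed 11.2% to 21.8% as doublets. Cells were clustered with Leiden (leidenalg 0.10.2, resolution 1) without the member genes and named "-like" from marker lists. The thresholds for naming mixed clusters and endothelial subtypes were set after the clusters were seen. Members, lists and markers were chosen with earlier results of these data known.

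UMIs of a class were summed per library, ratios of CPM had exact conditional binomial intervals, levels had exact Poisson intervals, and shares had Clopper-Pearson intervals, all at 95% (scipy 1.17.1). Calls needed a 2-fold ratio and at least 10 UMIs over both libraries, were made over all genes, and compared classes with at least 10 cells in each library. Against 0 UMIs the floor was 3 counts per library. No test across samples was possible with 1 library per group. The calling step was tested on simulated counts. Named genes were 29 listed members, up to 6 members per direction called at both weeks, up to 3 per direction called at 1 week, and members called in opposite directions. From each other list came up to 4 genes called at both weeks, and the 10 genes most like the module were ranked, 1 of which is not reported here. Upstream windows came from RefSeq on GRCm38.p6, and gene positions from GENCODE M21. Doublet removal, cell filter, hashtags, scaling, clustering resolution, UMI minimum, fold and subtraction of the T-cell-like level were varied.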

Additional observations from a re-analysis of the deposited data

Results flagged for a closer look

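Fbn1 in mesothelial-like cells was called in opposite directions at the 2 weeks. Its MASH over chow ratio was 2.10 at 12 weeks, with 158.7 CPM in MASH, against 75.6 CPM in chow. It was 0.368 at 24 weeks, with 71.8 CPM in MASH, against 195 CPM in chow. The 12-week call was lost without doublet removal, without cells carrying several hashtags and in the subcluster present in both libraries, where the ratio was 0.817. The 24-week call was lost without doublet removal and without the cell with the most UMIs. The difference between the weeks was not tested, and the chow values rest on 34 and 13 cells.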

How the results depend on the processing

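Ratios are MASH over chow, and counts are members called. Without doublet removal the summed ratio was 2.25 and 2.0037 over all kept cells at 12 and 24 weeks, 1.51 and 0.982 in mesothelial-like, 0.932 and 1.13 in sinusoidal, 1.00 and 1.58 in vascular endothelial-like and 1.60 and 1.71 in macrophage-like cells. It was 1.01 in fibroblast-like and 1.24 in Spp1 cholangiocyte-like cells at 12 weeks and 0.790 in monocyte-like cells at 24 weeks. At 12 weeks 1 member was called in fibroblast-like, 7 in Spp1 and 2 in Dmbt1 cholangiocyte-like, 2 in macrophage-like and 3 in monocyte-like cells. Mesenchymal classes gave 63.2%, 27.6%, 39.4% and 17.3% of member UMIs in 12-week MASH, 12-week chow, 24-week MASH and 24-week chow. Named members that reversed were Col8a1 in fibroblast-like cells (0.503), Col18a1 (0.749) and Fn1 (1.56) in vascular cells at 24 weeks, and Sparc (2.13) and Thbs1 (0.623) in macrophage-like cells at 12 weeks. The cause was not tested, except that Prg4-positive cells were put in another cluster.

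Without cells carrying several hashtags the summed ratio was 1.96 and 2.30 over all cells, 1.41 in mesothelial-like, 1.17 in fibroblast-like and 21.5 in macrophage-like cells at 12 weeks, and 1.54 in vascular cells at 24 weeks. The mesenchymal shares were 60.1%, 31.5%, 43.9% and 8.9953%, in the same order of libraries. The stricter cell filter gave shares of 60.9%, 30.7%, 43.1% and 10.1% and 2 calls in Dmbt1 cholangiocyte-like cells. With hashtags 1 to 4 of 24-week chow alone, the 24-week ratio was 3.13 over all cells, 0.992 (reversed) in sinusoidal cells, 1.59 with 7 calls in vascular cells and 0.693 with 1 call in monocyte-like cells, and the chow mesenchymal share was 4.75%. With hashtags 5 to 8 alone it was 1.97 over all cells, 1.28 in vascular cells and 0.509 with 2 calls in monocyte-like cells. The chow mesenchymal share was then 2.98%, and the mesothelial-like share ratio was 33.1, on very few chow cells.

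Scaling by the median ratio gave 1.75 and 1.05 (reversed) in mesothelial-like cells at 12 and 24 weeks, and 1.09 in fibroblast-like and 1.04 in sinusoidal cells at 12 weeks. Clustering at resolution 2 gave 0.915 and 1.07 in sinusoidal cells. A minimum of 30 UMIs left 6 and 3 calls in sinusoidal cells at 12 and 24 weeks and, at 12 weeks, 4 in vascular, 2 in Spp1 and 1 in Dmbt1 cholangiocyte-like and 0 in monocyte-like cells, where fewer genes are tested by construction. A fold of 1.5 gave 12 calls in sinusoidal cells at 24 weeks, 13 and 19 in vascular and 2 and 4 in monocyte-like cells at 12 and 24 weeks. Subtracting the T-cell-like level gave 18.0 in macrophage-like cells, 0 calls in monocyte-like cells, and reversed Col3a1 in monocyte-like cells (0.393), all at 12 weeks; Dcn in sinusoidal cells stood at 1.16.

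The remaining alternatives were chosen after seeing the data. Without mesothelial-like cells the ratio over all cells was 1.17 with 7 calls at 12 weeks and 1.55 at 24 weeks, and Col12a1 (0.797), Dcn (0.997), Acta2 (0.761) and Tagln (0.765) at 12 weeks and Mgp (0.902) at 24 weeks reversed. The mesothelial-like subcluster present in both 12-week libraries gave 0.909 (reversed) with 4 calls, and Col1a1 (0.647), Col3a1 (0.849), Fn1 (0.375), Sparc (0.831) and Fbn1 (0.817) reversed. One vascular cluster alone gave 1.15 and 1.26 at 12 and 24 weeks and the other 1.13 at 24 weeks. Macrophage-like cells gave 7.68 at 12 weeks without the Prg4-led subcluster, and 26.1 with 3 calls without subclusters led by genes of other cell types. Without the top cell of each gene 2 calls were left in Dmbt1 cholangiocyte-like cells at 12 weeks and 1 was made in monocyte-like cells at 24 weeks, and Thbs1 reversed in Spp1 cholangiocyte-like cells (2.29). Of all alternative values for counts, sums and shares, 219 kept their direction and size, 79 moved and 3 reversed. Of those for named members, 1216 kept theirs, 129 moved and 17 reversed. The kept ones include 102 from the 1.5-fold setting and 80 from the 30-UMI setting, which cannot change a member's ratio. Clustering at resolution 2 also left the mesenchymal subclusters as they were. Without doublet removal 126 kept theirs, 27 moved and 5 reversed. In the mesothelial-like subcluster present in both 12-week libraries 1 kept its value, 12 moved and 5 reversed. No paired analysis was possible because each group has 1 library. The mesothelial-like ratios rest on 34 and 13 chow cells.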

Other observations

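Neutrophil-like cells carried Thbs1 at 89.2 CPM in 24-week MASH, against 544.8 CPM in 24-week chow, and at 215.7 CPM in 12-week MASH, against 219.7 CPM in 12-week chow. Acta2 in the same cells stood at 48.6 CPM in 24-week MASH, against 93.0 CPM in 24-week chow. The 238 Acta2 UMIs of 24-week chow were spread over 187 of 1466 cells. These cells were outside the source classes compared above.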
